A study of Glycine max with 14 samples.

Results

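The late RNAs of the germinating soybean cotyledon are 150 gene loci, of 69145 in all, whose RNA stood higher in both stage 7 libraries than in every other library of the time course. Each locus was represented by its gene model of highest mean level. A locus qualified when its lower stage 7 library lay above the 12 libraries of stages 1 to 6 and reached 5 RPKM (reads per kilobase of model, scaled to library size), and when its stage 1 mean was under 0.25 of its stage 7 mean. The 985 loci that qualified were ranked by a score, the log2 ratio of the lower stage 7 library to the highest of the 12 others after adding 1 RPKM to each, and the highest 150 were taken. Members were thus chosen by their stage 7 values against the other 12 libraries and by their stage 1 mean. The rule also sets aside Glyma07g01730 and Glyma08g21410. Neither met the conditions. Glyma07g01730.1 was at 893 and 1579 RPKM in the stage 7 libraries, and at 432 and 2785 RPKM in replicates 1 and 2 of stage 5.

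Cotyledons of the cultivar Williams, grown in a greenhouse and freeze-dried, were profiled at 7 stages with 2 biological replicates each. Stage 1 is 1 day after imbibition and stage 2 is 2 days after planting. Stage 3 is 2 to 3 days, stage 4 is 3 to 4 days, stage 5 is 4 to 5 days, stage 6 is 5 to 6 days and stage 7 is 6 to 7 days after planting. All groups share the cultivar and the handling, and no treatment or mutant is involved, so age is the only labelled difference.

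In the soybean seedling the cotyledons are lifted above the soil, give up their stored protein and oil to the growing axis, turn green and for a time act as leaves before they yellow and drop. Soybean is an ancient polyploid, so many of its genes exist as related copies on different chromosomes. The files pair no identifier with a gene name, and the RefSeq gene table at hand (Glycine_max_v4.0, 59048 genes) matched 0 of them, so members are given by identifier with no role. For the same reason the tissue label was not checked against named markers, and no member sequence is shown.

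Library totals, recovered from the values, ran from 83892589 to 130723918 reads. Some libraries stand apart in the results below. The stage 7 libraries differed from each other in the members with the highest scores, stage 6 replicate 2 stood above stage 6 replicate 1 in most members, and stage 2 replicate 1 held reads of several members that were at or near 0 in stage 2 replicate 2. Values of these libraries are given beside each result they enter.

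At the median the members were scarce RNAs up to stage 5, with a higher level at stage 6 and the highest at stage 7. Of the 150, 45 had a mean over 10 RPKM at some earlier stage, and 41 had their highest earlier mean before stage 6. Their median was 24.9 RPKM in stage 7 replicate 1 and 22.1 RPKM in stage 7 replicate 2. Stage 7 means ran from 5.29 to 418 RPKM with a median of 24.1, and 23 members exceeded 100 RPKM while 27 stayed under 10. At the earlier stages the median over members of the stage mean was 0.644 RPKM for stage 1, 1.65 RPKM for stage 2, 1.5 RPKM for stage 3, 2.44 RPKM for stage 4, 2.53 RPKM for stage 5 and 4.82 RPKM for stage 6. These levels are what the rule selected, and are given as a description with no test. In these bulk samples, fewer cells of a type and less RNA per cell cannot be told apart.

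**Figure D1:**
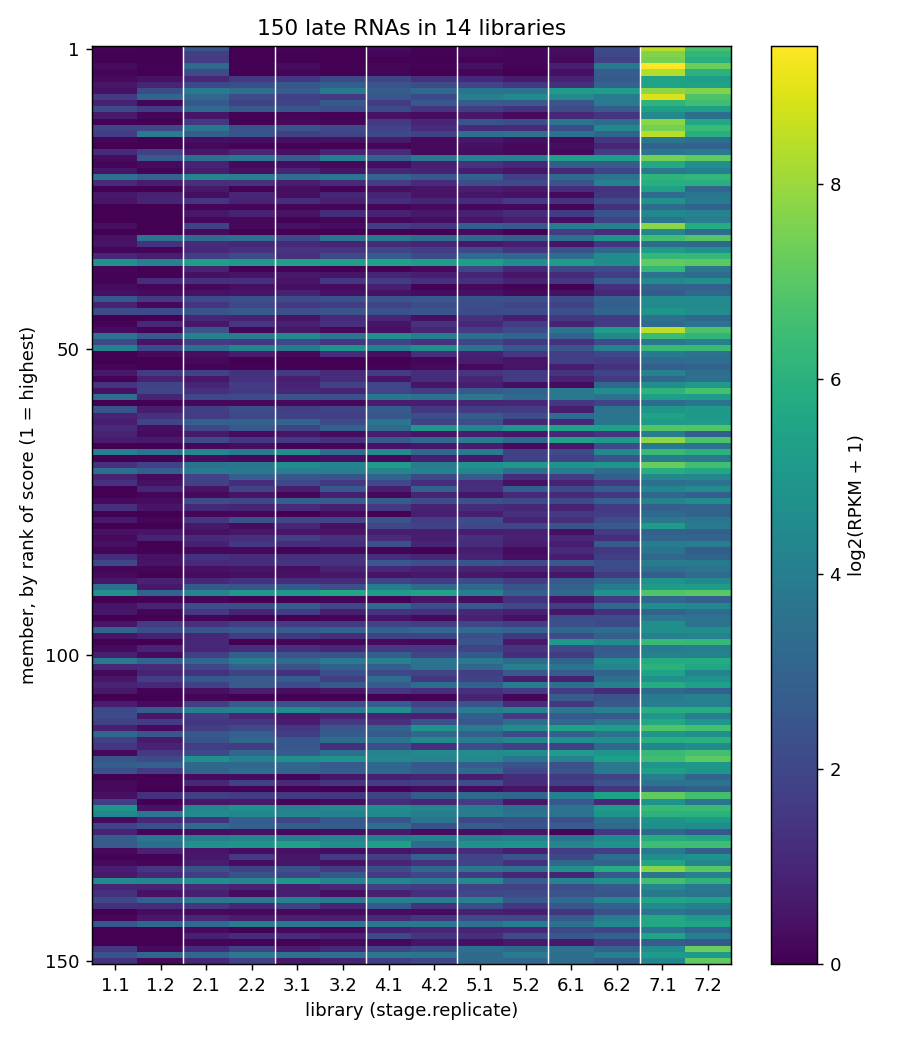
Level of each of the 150 members (rows, highest score at the top) in each of the 14 libraries (columns, stage and replicate, as deposited), as log2(RPKM + 1). The 2 stage 7 columns are the brightest in every row, stage 6 replicate 2 is brighter than stage 6 replicate 1 in most rows, and stage 2 replicate 1 is brighter than stage 2 replicate 2 in the top 5 rows.

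The distance of stage 7 from the rest varied widely among members. The lower stage 7 library was between 2.15 and 23.2 times the highest of the 12 other libraries, with a median of 2.83 times. It was at least 3 times as high in 66 members, at least 5 times in 12 and at least 10 times in 5. At the edge of the set, Glyma05g31020.1 was at 35.2 and 33.2 RPKM at stage 7 and at most 15.5 RPKM elsewhere, and Glyma10g06880.1 was at 20.01 and 138.9 RPKM at stage 7 and at most 9.14 RPKM elsewhere. Just outside it, Glyma02g39320.2 was at 38.3 and 40.7 RPKM at stage 7 and at most 17.97 RPKM elsewhere, and Glyma14g13430.1 was at 7.21 and 6.29 RPKM at stage 7 and at most 2.53 RPKM elsewhere. The scores ran from 4.26 at rank 1 to 1.05 at rank 150 without a gap at this edge.

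The same conditions applied to another stage in place of stage 7 gave fewer loci. No locus met them for stage 2, 46 did for stage 3, 339 for stage 4, 205 for stage 5 and 412 for stage 6. A score of 1 or more was reached by 157 loci at stage 7, by 4 at stage 5 and by none for the remaining stages from 2 on. The median score of the qualifying loci was 0.461 at stage 7 and 0.180 at stage 6. Stage 7 ends the course, whereas stages 2 to 6 must also exceed later stages, so the conditions are not equally strict. These counts describe the libraries and carry no test.

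The 5 members with the highest scores formed a pattern of their own. Glyma15g18360.1 was at 344 RPKM in stage 7 replicate 1 and 102 RPKM in stage 7 replicate 2, Glyma09g07070.1 at 197 and 72.8 RPKM, and Glyma07g07180.1 at 176.5 and 59.8 RPKM. Glyma19g41090.1, with the highest stage 7 mean of all members (418 ± 373 RPKM, SD, n = 2), was at 681 and 154 RPKM, and Glyma03g38490.1 was at 321 and 62.8 RPKM. All 5 were thus 2.70 to 5.12 times higher in stage 7 replicate 1 than in stage 7 replicate 2.

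Before stage 7 these 5 RNAs were close to absent in most libraries. In the 6 libraries of stages 1, 3 and 4 they had between 0 and 36 reads each, where a count of 0 allows up to 3 reads. In stage 7 replicate 1 they had 3613 to 91513 reads. Glyma15g18360.1 had 0.10 and 0.0433 RPKM in stage 1, 4.40 and 0.0251 RPKM in stage 2, 0.116 and 0.0246 RPKM in stage 3, 0.196 and 0.0557 RPKM in stage 4, 0.167 and 0.0863 RPKM in stage 5, and 0.287 and 3.55 RPKM in stage 6, with replicate 1 given before replicate 2. The 2 libraries that stood out below stage 7 were therefore stage 2 replicate 1 and stage 6 replicate 2, and the same 2 stood out in the other 4 of these members.

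The level in stage 2 replicate 1 followed that in stage 7 replicate 1 closely. It was 1.10% to 1.30% of the stage 7 replicate 1 value in the 5 members, which span 176.5 to 681 RPKM in that library. In stage 2 replicate 2 the same members had 0 to 6 reads, or at most 0.00729% of the stage 7 replicate 1 value. Stage 6 replicate 1 held 0.0834% to 0.108% and stage 6 replicate 2 held 1.03% to 1.93% of the stage 7 replicate 1 value. The near-constant share in stage 2 replicate 1 extended beyond these 5. Of the 26 members more than 2 times higher in stage 7 replicate 1 than in stage 7 replicate 2, 12 had under 1% of their stage 7 replicate 2 value in stage 2 replicate 2, and in those 12 stage 2 replicate 1 held 0.913% to 2.09% of the stage 7 replicate 1 value, with a median of 1.21%. The share was looked at only in these 26 members. Stage 2 replicate 1 was above stage 2 replicate 2 in 21 of them and in 48 of the other 124 members. Carry-over of material or reads between libraries was not tested as a source of these values, in stage 2 replicate 1 or in stage 6 replicate 2.

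**Figure D2:**
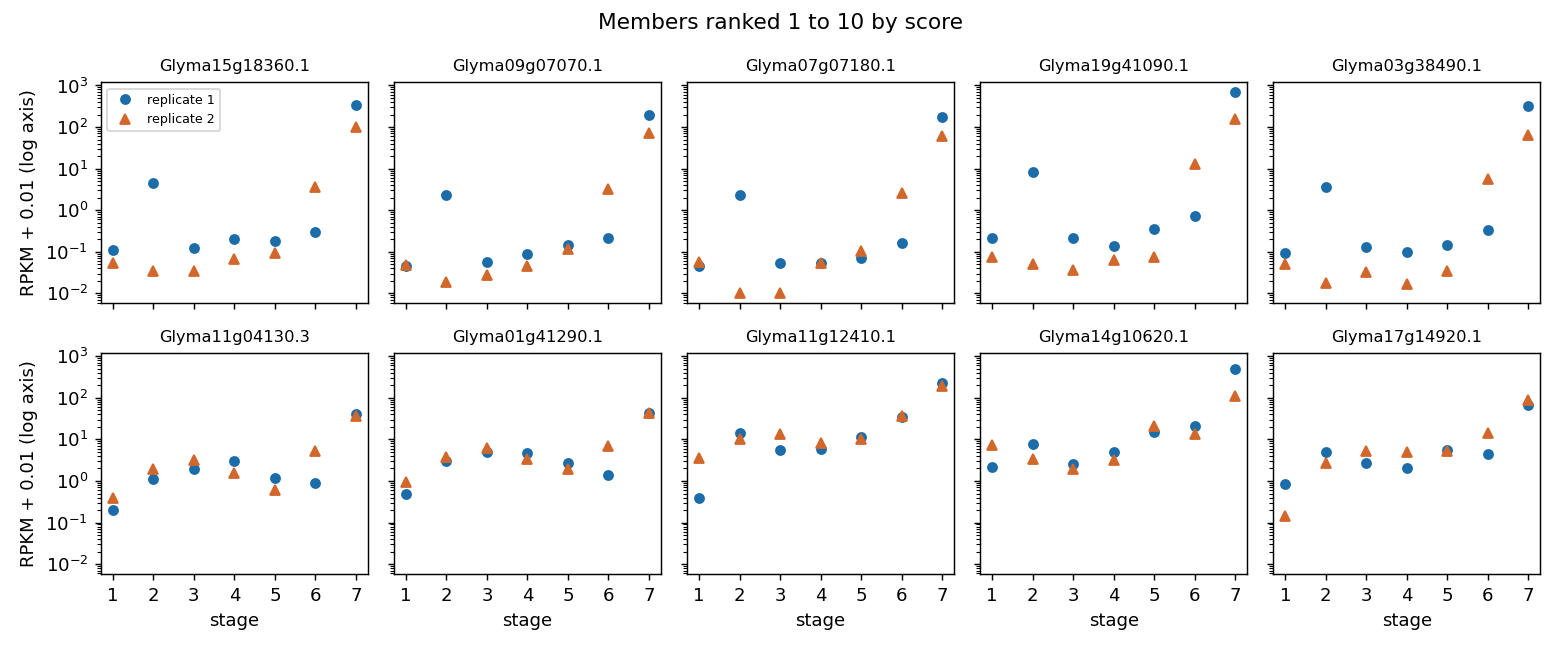
RPKM (log axis, with 0.01 added so that values of 0 can be drawn) of the 10 members with the highest scores at stages 1 to 7, one panel per member, circles for replicate 1 and triangles for replicate 2. In the upper 5 panels stage 2 replicate 1 and stage 6 replicate 2 stand above the other libraries of stages 1 to 6, and stage 7 replicate 1 lies above stage 7 replicate 2. In the lower 5 panels the replicates of stage 2 differ far less than in the upper 5.

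The next 5 members by score were detected in every library. Glyma11g04130.3 was at 41.8 and 36.8 RPKM at stage 7 and between 0.186 and 5.22 RPKM in the 12 other libraries, and Glyma01g41290.1 was at 42.5 and 42.3 RPKM at stage 7 and between 0.486 and 7.08 RPKM elsewhere. Both were highest before stage 7 in stage 6 replicate 2. Glyma11g12410.1 was at 227.5 and 195 RPKM at stage 7, against 34.9 and 37.2 RPKM at stage 6 and 11.6 and 10.3 RPKM at stage 5, with replicates close together at each of these stages. Glyma14g10620.1 was at 488 and 109 RPKM at stage 7 and at most 21.2 RPKM elsewhere, so its stage 7 libraries differed by 4.45 times. Glyma17g14920.1 was at 68.7 and 90.8 RPKM at stage 7 and at most 14.2 RPKM elsewhere.

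The stage 7 libraries gave like values for most members but not for many of the most abundant. The ratio of stage 7 replicate 1 to replicate 2 had a median of 1.11 and lay from 0.5 to 2 in 122 members. It exceeded 2 in 26 members, among them 12 of the 23 with a stage 7 mean over 100 RPKM. Glyma15g15370.1, the third by stage 7 mean, was at 358 RPKM in stage 7 replicate 1 and 109.6 RPKM in stage 7 replicate 2, against 11.5 and 37.2 RPKM at stage 6. The highest ratios were those of Glyma16g15790.1 (74.3 and 12.4 RPKM), Glyma17g34900.1 (341 and 61.1 RPKM) and Glyma13g25470.1 (40.5 and 7.65 RPKM). The 2 members under 0.5 were Glyma10g06880.1 and Glyma10g06940.1, neighbours by identifier, and Glyma10g06940.1 was at 22.5 RPKM in replicate 1 and 153 RPKM in replicate 2. The next lowest ratio, 0.681, was that of Glyma10g26220.1. Over all 35545 loci with at least 1 RPKM in 2 libraries, 2.13% were at least 2-fold higher in replicate 1 and 2.22% in replicate 2, on the log2(RPKM + 1) scale. On the same scale 22 members were at least 2-fold higher in replicate 1 and 2 in replicate 2.

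**Figure D3:**
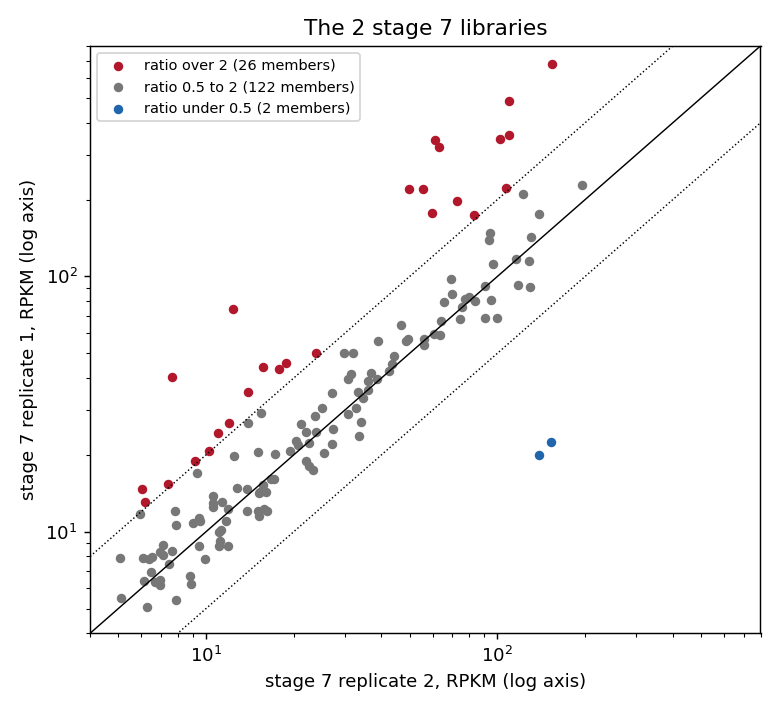
Level of each member in stage 7 replicate 1 (vertical) against stage 7 replicate 2 (horizontal), in RPKM on log axes, with the line of equal values and dotted lines at ratios of 2 and 0.5. Most points lie near the line, 26 members lie above the upper dotted line and 2 below the lower one.

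As one sum, the 150 members stood highest at stage 7, with the stage 7 libraries far apart. They summed to 8998 RPKM in stage 7 replicate 1 and 5888 RPKM in stage 7 replicate 2. The sums were 368 and 287 RPKM for stage 1, 617 and 633 RPKM for stage 2, 632 and 647 RPKM for stage 3, 802 and 715 RPKM for stage 4, 789.7 and 689 RPKM for stage 5, and 993 and 1563 RPKM for stage 6. The 5 members with the highest scores made up 19.1% of the sum in stage 7 replicate 1 and 7.67% in stage 7 replicate 2. Without them the stage 7 sums were 7278 and 5436 RPKM, so most of the sum lay in the other 145.

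**Figure D4:**
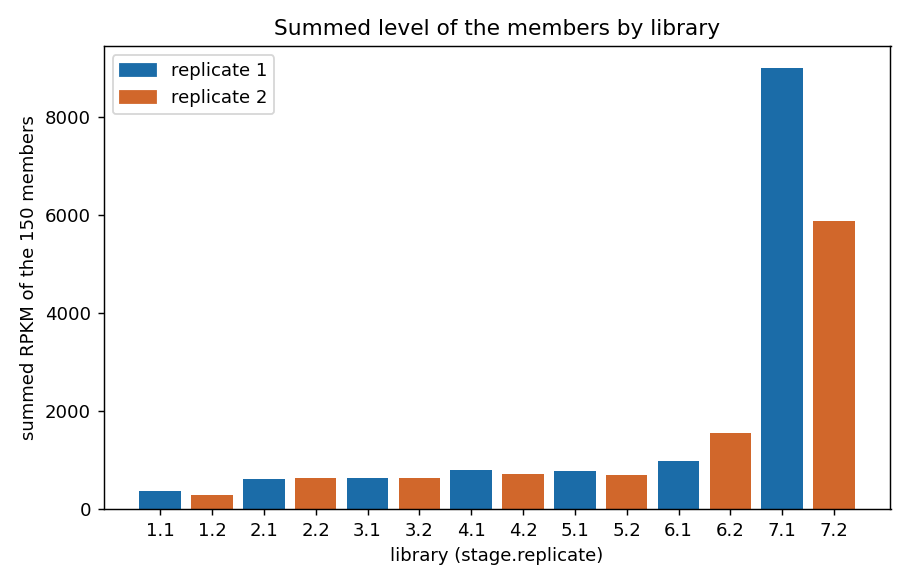
Summed RPKM of the 150 members in each of the 14 libraries (stage and replicate), blue for replicate 1 and orange for replicate 2. The sum is at most 993 RPKM up to stage 6 replicate 1, is 1563 RPKM in stage 6 replicate 2 and is 8998 and 5888 RPKM in the stage 7 libraries.

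Stage 6 replicate 2 lay between stage 7 and the earlier libraries in many members. It was the highest of the 12 other libraries in 96 members (64%), against 49.8% of all 985 loci that qualified and 6.11% of the 35545 loci with at least 1 RPKM in 2 libraries. The score divides by this highest value, so the share is a description. At stage 6, 123 members were higher in replicate 2 and 27 in replicate 1, and 73 were at least 2 times higher in replicate 2. Over the 35545 loci, 26.6% were higher in stage 6 replicate 2. The median ratio of stage 7 to stage 6 over the members was 8.05 within replicate 1 and 3.37 within replicate 2.

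Members differed in the level from which they departed. In 17 members no library of stages 1 to 6 reached 2 RPKM, in 77 the highest of these libraries was from 2 to 10 RPKM, and in 56 it was 10 RPKM or more. The stage 1 mean was the lowest stage mean in 101 members, and the stage 6 mean was the highest before stage 7 in 109. Of single libraries, stage 6 replicate 2 was the highest of the 12 in 96 members and stage 6 replicate 1 in 21. The rule drew on the stage 1 mean and on the highest of the 12 libraries, so these counts are descriptions. Only 5 members kept a mean of at least 10 RPKM at each stage from 1 to 6. They were Glyma11g33560.1, Glyma15g05820.1, Glyma08g16810.1, Glyma17g11060.1 and Glyma08g41120.1, named here after their values were seen. Glyma11g33560.1 was at 142 and 130.4 RPKM at stage 7 and between 16.6 and 41.5 RPKM in the 12 other libraries. Its stage means were highest at stage 3, at 40.5 RPKM, and stood at 29.7 RPKM at stage 6 and 21.8 RPKM at stage 1. At the other end, the lowest stage 7 means were 5.29 ± 0.269 RPKM (SD, n = 2) for Glyma11g32310.1, 5.65 ± 0.845 for Glyma01g40460.1 and 6.26 ± 0.204 for Glyma04g03910.1, and all 3 stayed under 2 RPKM in the libraries of stages 1 to 6.

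Many members were already higher at stage 6 than at stage 2, and no tested member was called lower. The tests used only the 10 libraries of stages 2 to 6. The score also drew on these libraries, through the highest of the 12, so the tests are not independent of the choice and the members' counts are descriptions, given beside the shares over all tested models. Of the members, 137 had at least 1 RPKM in 2 of the 10 libraries and were tested, and 13 were too low. Of the 137, 24 did not reach this level in 2 libraries of stages 2 to 5 and passed only with stage 6. At stage 6 against stage 2, 56 of the 137 tested members (40.9%) rose, by limma with a Benjamini-Hochberg adjusted p under 0.05 over all 42846 tested models and a log2 fold change of at least 1, on the log2(RPKM + 1) scale. Over all tested models 10.1% were called higher and 29.3% lower. The 24 members that passed only with stage 6 hold 12 of the calls, and the other 113 hold 44. With no filter 56 of the 150 (37.3%) were higher, against 6.28% of all models. By the same test 0 members were lower. Limma voom on the recovered reads called 63 members (46%) higher and 0 lower, where 5364 of the 42846 models were higher and 17025 lower. At an unadjusted p under 0.05, 70 members were higher and 0 lower, against 15.2% and 51.3% of all tested models. The log2 fold change was above 0 in 109 of the 137 tested members, and in 72 of the 121 tested without stage 6 replicate 2. The median log2 fold change was 0.83 over the tested members and -0.59 over all tested models, and without stage 6 replicate 2 the medians were 0.41 and -0.50. Both stage 6 libraries lay above both stage 2 libraries in 76 of the 137 tested members and below them in 1. The shares over all tested models were 20% and 62.9%.

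**Figure D5:**
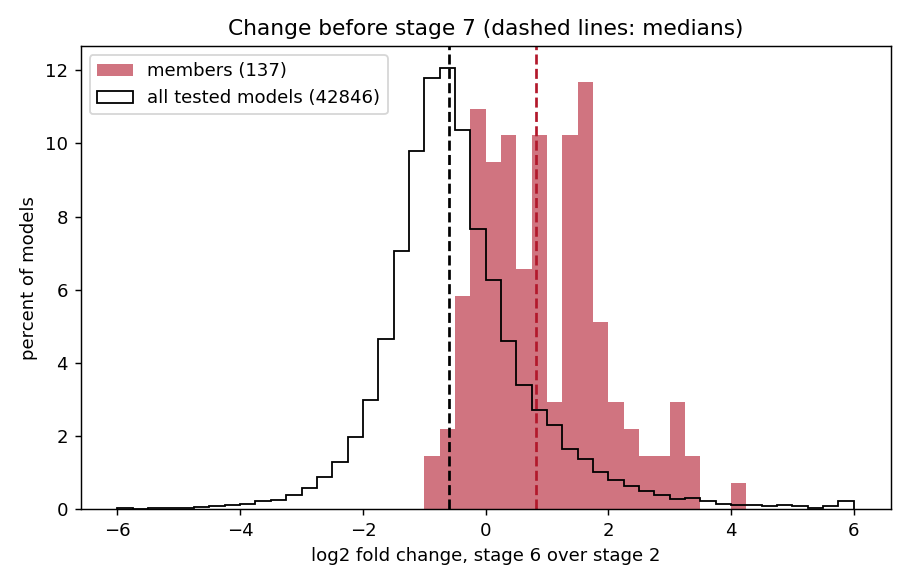
Distribution of the log2 fold change of stage 6 over stage 2, in percent of models per bin, for the 137 tested members (filled) and all 42846 tested models (line), with values beyond 6 in either direction placed in the end bins. Dashed lines mark the medians, 0.83 for members and -0.59 for all models.

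The largest of these early rises was that of Glyma0466s00200.1, whose identifier names a scaffold and no numbered chromosome. It was at 31.7 and 21.4 RPKM at stage 6, against 1.05 and 0.0257 RPKM at stage 2 (4.22 ± 0.556 SE on the log2 scale, with a limma adjusted p of 0.000803), and at 81.3 and 77.2 RPKM at stage 7. Glyma18g04950.1 was at 41.3 and 37.1 RPKM at stage 6 and 2.28 and 3.17 RPKM at stage 2 (3.44 ± 0.584, adjusted p = 0.00197). Its level was already 27.8 RPKM in stage 4 replicate 2, against 6.94 RPKM in stage 4 replicate 1. Glyma01g35910.1 was at 40.5 and 34.4 RPKM at stage 6 and 3.47 and 1.88 RPKM at stage 2 (3.42 ± 0.327, adjusted p = 0.000195). Among the 10 members with the highest scores, only Glyma11g12410.1 and Glyma14g10620.1 were called at this comparison, at 1.51 ± 0.351 (limma adjusted p = 0.00584) for Glyma11g12410.1 and 1.52 ± 0.354 (limma adjusted p = 0.00593) for Glyma14g10620.1. Glyma15g15370.1 was also called (3.14 ± 0.7497, limma adjusted p = 0.00785).

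The count of early rises rested partly on stage 6 replicate 2 and on the scale. It was 40 of 121 tested members (33.1%, against 10% of all tested models) without stage 6 replicate 2, 28 of 121 (23.1%, against 6.66% of all tested models) without both that library and stage 2 replicate 1, and 24 of 137 (17.5%, against 5.57%) with 5 RPKM added before the logarithm. Quantile normalization moved the median log2 fold change of all tested models to -0.13 and that of the members to 1.22, and with it 73 members were higher and 0 lower, while 6414 models (15%) were higher and 5818 (13.6%) lower, against 4314 and 12564 without it. Upper quartile scaling gave 72 members higher, against 15.6% of all tested models higher and 13.3% lower. With the replicate number as a block 59 members were higher, against 10.3% of all tested models higher and 30% lower.

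Over stages 2 to 6 as a whole, whether change was more frequent among members than among models in general depended on the scaling and on single libraries. The moderated F test called 57 of the 137 tested members (41.6%), a share below the 53.1% of all tested models called. Without stage 6 replicate 2 and stage 2 replicate 1 the counts were 24 of 121 members (19.8%) and 8.71% of all tested models. With the replicate block they were 65 members (47.4%) and 68.4%, under quantile normalization 65 members (47.4%) and 42.3%, and under upper quartile scaling 65 members (47.4%) and 42.7%.

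At the last step before stage 7, from stage 5 to stage 6, the members leaned upward, and single members were called only under some settings. Limma without a replicate block called 0 of the 137 tested members, where 0% of all tested models were called (0 of 42846). At an unadjusted p under 0.05, 43 members were higher and 0 lower, against 2.66% and 18.4% of all tested models. Limma voom called 0 members and 0 of all 42846 models. The log2 fold change was above 0 in 124 of the 137 members. It was above 0 in 118 of 127 tested without stage 6 replicate 1 and in 76 of 121 without stage 6 replicate 2. Without stage 5 replicate 1 it was above 0 in 120 of 137, and without stage 5 replicate 2 in 109 of 136. The replicate numbers were taken to pair the libraries, from the data and not from the labels, and the fit above did not use this pairing. With the replicate number as a block 13 members were higher at stage 6 and 0 lower, against 0.425% of all tested models higher and 3.77% lower. Quantile normalization called 6 members higher, where 0.098% of all tested models were higher and 0.0397% lower, and upper quartile scaling called 6, where the shares were 0.128% and 0.063%. Both stage 6 libraries lay above both stage 5 libraries in 64 of the 137 members and below them in 0, against 7.76% and 48.4% of all tested models. The median log2 fold change was 0.59 over the members and -0.28 over all tested models, and without stage 6 replicate 2 these were 0.14 and -0.19.

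The steps between stages 2 and 5 separated fewer members. Of the 137 tested members, both stage 4 libraries lay above both stage 3 libraries in 51 and below them in 8. Over all tested models these shares were 24.3% and 29.3%. From stage 2 to stage 3, 14 of the 137 were above and 16 below, against 24.9% and 16.4% of all tested models. From stage 4 to stage 5, 35 of the 137 were above and 19 below, against 12.1% and 28.7%. These are counts of non-overlapping pairs with no test.

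Neighbouring members did not always share a course. By identifier number, 27 members fell into 12 runs of neighbours at most 100 apart, of which 2 held 3 or more members. The run of 4 on chromosome 17 was uniform. Glyma17g32680.1 was at 20.7 and 19.4 RPKM at stage 7, Glyma17g32740.1 at 12.2 and 11.9, Glyma17g32790.1 at 15.2 and 15.6 and Glyma17g32840.1 at 16.1 and 16.7, and all 4 were at 1.43 to 2.28 RPKM in stage 6 replicate 1 and 3.69 to 6.07 RPKM in stage 6 replicate 2. None of the 4 was called by the F test over stages 2 to 6 (limma adjusted p from 0.890 to 0.914).

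The run of 3 on chromosome 15 was mixed. Glyma15g18280.1 was at 13.04 and 11.4 RPKM at stage 7. It was higher at stage 6, with 4.34 and 4.70 RPKM, than at stage 2, with 0.773 and 0.252 RPKM (1.89 ± 0.245 SE on the log2 scale, limma adjusted p = 0.000578). Glyma15g18360.1 is the member with the highest score, near 0 at most stages. Glyma15g18430.2 was at 56.7 and 55.8 RPKM at stage 7 and between 6.06 and 23.4 RPKM in the libraries of stages 2 to 6, with no call at stage 6 against stage 2 (log2 fold change -0.17 ± 0.503 SE, limma adjusted p = 0.786). Chromosome 9 held a like pair of neighbours, Glyma09g07070.1, ranked 2, and Glyma09g07100.1, named after its values were seen, whose level kept within a narrow ratio of that of Glyma15g18430.2 (0.562 to 0.692 for Glyma15g18430.2 over Glyma09g07100.1 in 14 libraries). No sequence was compared here, so whether these are related copies was not tested.

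Several members carried nearly the same information. In 18 pairs, which involve 28 members, the ratio of the members' RPKM values varied by less than 1.5 times over the 8 or more libraries with at least 20 reads in both. Of these pairs, 7 joined different chromosomes, among them Glyma11g33560.1 with Glyma18g04660.1, also named after the values were seen (ratio 2.15 to 2.81 in 14 libraries). The neighbours Glyma10g06940.1 and Glyma10g06880.1 kept a ratio of 1.10 to 1.15 over 13 libraries, including stage 7, where their ratios of replicate 1 to replicate 2 were 0.147 and 0.144. The treatment of reads matching more than one model is not given here. The separate values of such pairs are therefore uncertain, and the members are fewer than 150 independent observations.

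The members were spread over all 20 numbered chromosomes, from 2 on chromosome 20 to 13 each on chromosomes 8 and 11. On chromosome 11 they were 0.739% of the loci with at least 1 RPKM in 2 libraries, and on chromosome 20 0.127%. Member models had a median length of 1258 bases (156 to 4474), against 1368 bases over those loci, and 81.3% of members against 82.3% of the loci had a single model. In length and in number of models the late RNAs were therefore close to expressed loci in general.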

How the data were processed

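The authors deposited one file per library with an RPKM value for each of 78773 gene models, replicates not pooled. The submitters' processing notes name Bowtie. No version, genome build, annotation or rule for counting is given in the sources used here. Read numbers were recovered from the deposited RPKM: for all of the 67016 models with 2 or more nonzero values (100%), every value was a whole number to 0.003 reads, or to a relative 1e-08 if larger, and these sum to 99.99% to 100% of each library's total.

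The members and the lists were chosen with earlier results of these data known. Members were named in the text by fixed rules, except those said above to be named after their values were seen. The rules took the 10 highest scores and the extremes of stage 7 level and of the stage 7 replicate ratio. They also took both sides of the edge of the set, runs of 3 or more neighbours, and the largest changes called at stage 6 against stage 2.

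Tests used limma 3.58.1 (R 4.3.3, statmod 1.5.0) on log2(RPKM + 1), a scale that understates changes of low models, over models with at least 1 RPKM in 2 of the 10 libraries of stages 2 to 6. The fit had a mean per stage, a mean-variance trend, robust moderation and 5 residual degrees of freedom. Two-sided p-values were adjusted over all 42846 models by Benjamini-Hochberg, and the procedure was tested on simulated data. The replicate differences of all 10 pairs of these stages correlated (0.165 to 0.626 across models), so the replicate numbers were taken to pair the libraries, from the data and not from the labels. The reported tests, those of single members among them, did not use this pairing. It entered only as the replicate block among the alternatives. Alternatives were other pseudocounts, filters, scalings, all 14 libraries, a replicate block, limma voom on recovered reads and each library left out.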

Additional observations from a re-analysis of the deposited data

How the results depend on the processing

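The count of members called higher at stage 6 against stage 2 was 24 with a pseudocount of 5, 31 of 73 tested with a filter of 5 RPKM, and 28 without both stage 2 replicate 1 and stage 6 replicate 2, a setting chosen after seeing the data, against 56 as reported. With 1 library left out it ran from 40 to 61. The count called by the F test was 31 with the filter of 5 RPKM and 24 without those 2 libraries, against 57, with a range of 39 to 63 over single libraries omitted. The filter of 5 RPKM left 73 members tested, so its counts have a smaller base. The F test then called 42.5% of them, against 41.6% as reported, and 16540 of all 26699 models tested at that filter. At stage 6 against stage 2, 42.5% of the 73 were called higher, against 40.9% as reported. So were 3257 of the 26699 models. The fits with 1 library left out tested 121 to 137 members. At stage 6 against stage 5, 0 members were called higher as reported, against 1 with a pseudocount of 5 and 13 with the replicate block. Upper quartile scaling and quantile normalization called 6 each. Over all 42846 tested models the counts were 0 as reported, 23 with a pseudocount of 5 and 182 with the replicate block. They were 55 under upper quartile scaling and 42 under quantile normalization. With 1 library left out, the median log2 fold change of stage 6 over stage 5 ran from 0.141 to 0.97 over the members. Over all tested models it ran from -0.393 to -0.19. Some members were also called higher without stage 5 replicate 1, which left 1 library at that stage. The medians were then 0.795 over the members and -0.218 over all tested models. The replicate block gave 59 members higher at stage 6 against stage 2 and 65 called by the F test. No setting called a member lower in either comparison. The set itself depended on both stage 7 libraries: of its 150 members, stage 7 replicate 2 alone would have picked 93 and stage 7 replicate 1 alone 47, and 113 to 147 were shared under the other settings of the rule. The early rise of Glyma18g04950.1 had a log2 fold change of 3.34 and a limma adjusted p of 0.0629 without both stage 2 replicate 1 and stage 6 replicate 2. Each member had 98 reads or more in stage 7 replicate 1 and 116 or more in stage 7 replicate 2, while some had 0 reads in libraries of stages 1 to 4.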

Other observations

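Some RNAs stood far higher in 1 stage 7 library than in the other. Used alone in the rule, stage 7 replicate 1 gave 1773 qualifying loci and stage 7 replicate 2 gave 1244, against 985 with both. The 150 highest scores of stage 7 replicate 1 alone were, at the median, 3.17 times higher there than in stage 7 replicate 2. Those of stage 7 replicate 2 alone were 1.25 times higher there than in stage 7 replicate 1. Each 150 were chosen by their level in that library, so an excess over the other library comes in part with the choice. Of the 150 from replicate 1, 5 did not rise above the 12 libraries of stages 1 to 6 in stage 7 replicate 2. Of the 150 from replicate 2, 20 did not rise above those 12 libraries in stage 7 replicate 1. At 5 RPKM or more, 20 loci were at least 10 times higher in stage 7 replicate 1 than in replicate 2, and 44 were at least 10 times higher in replicate 2 than in replicate 1. These are values of single libraries, with no test.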
